A study of Danio rerio with 2 samples.

Results

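The *lyve1b* cells of the developing zebrafish heart are described here at 48 and 72 hours post fertilization (hpf). A cell was counted as a *lyve1b* cell when it held at least 2 UMIs (unique molecular identifiers, each standing for 1 captured transcript) of *lyve1b* and at least 1 of *cdh5*, and no UMI of *tlx2*, *mpeg1.1* or *myb*. The cells were thus chosen by their UMIs of these 5 genes. By this rule 119 of 2665 cells at 48 hpf and 73 of 4125 cells at 72 hpf were *lyve1b* cells, 192 of 6790 in all. They were set beside the other *cdh5*-positive cells of the same library, 2515 at 48 hpf and 3522 at 72 hpf. *cdh5* encodes VE-cadherin, the adhesion molecule of endothelial junctions.

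Both libraries came from larvae with the transgenes *Tg(cd41:GFP)* and *Tg(kdrl:nls-mCherry)*. The *kdrl* promoter marks endothelial nuclei red and the *cd41* promoter marks thrombocytes and blood progenitors green, and no group received a treatment. Hearts were dissected by hand and dissociated, live cells positive for mCherry alone and cells positive for mCherry and GFP were sorted, and both fractions were combined before capture. There was 1 library per age, each from 1 lane of droplet capture with 3′ chemistry, and the number of hearts pooled was not given in the sources used here. Age and library therefore cannot be told apart, no test over samples exists, and all intervals below are exact 95% intervals that cover counting error only.

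Lymphatic endothelial cells arise mainly from veins in the zebrafish and carry Flt4 (Vegfr3), the receptor for the growth factor Vegfc, on their surface. Lyve1 proteins are relatives of the hyaluronan receptor CD44, and in zebrafish *lyve1b* reporters label lymphatic vessels as well as parts of the venous system. Venous and sinusoidal endothelium and the mural lymphatic cells of the zebrafish brain clear material from the circulation or tissue through the scavenger receptors Stab1, Stab2 and Mrc1. The endocardium, the inner lining of the heart, is set apart from other endothelium by cardiac transcription factors such as *hand2* and *gata5* and supplies the cells of the valves.

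Because *lyve1b* chose the cells, its level is a description. Each 48 hpf cell held between 2 and 18 *lyve1b* UMIs with a median of 5, and each 72 hpf cell between 2 and 31 with a median of 8. Pooled over the cells, *lyve1b* stood at 532 CPM (UMIs of the gene per 1000000 UMIs of the group) at 48 hpf and 1480 CPM at 72 hpf. The rule lost 13 cells with *tlx2* UMIs, 1 with *mpeg1.1* and 1 with *myb* at 48 hpf, and 2 with *tlx2* and 1 with *myb* at 72 hpf. No cell with 2 or more *lyve1b* UMIs lacked *cdh5*.

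The *lyve1b* cells made up 4.47% of the 48 hpf library (95% interval 3.71 to 5.32) and 1.77% of the 72 hpf library (1.39 to 2.22). Depth moved with this difference. The *lyve1b* cells had a median of 10227 UMIs and 2406 genes at 48 hpf and 5525 UMIs and 1673 genes at 72 hpf, close to the medians of the other *cdh5*-positive cells (10430 and 6122 UMIs). When every cell was thinned at random to 2000 UMIs before the rule was applied, 40 cells (1.5%, 1.07 to 2.04) passed at 48 hpf and 50 cells (1.21%, 0.901 to 1.59) at 72 hpf. At 2000 UMIs per cell the intervals of the 2 shares overlapped. The minimum of 2 UMIs then weighs more on cells with less *lyve1b*, and its pooled level was lower at 48 hpf than at 72 hpf. The thinned shares therefore cannot separate depth, the level of *lyve1b* and the number of such cells.

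The distribution of *lyve1b* had no gap at the threshold. At 48 hpf the 43 cells with 1 *lyve1b* UMI, just outside, held *gpm6ab* at 1248 CPM and *hand2* at 109 CPM, and the 24 cells with 2 UMIs, just inside, held them at 2041 and 8.61 CPM. At 72 hpf the 18 cells just outside held *lyve1a* at 1146 CPM, *gpm6ab* at 298 CPM and *hand2* at 261 CPM, and the 7 cells just inside at 3855, 1265 and 29.4 CPM. The pools of cells just outside thus held both the markers of the *lyve1b* cells and the endocardial *hand2*. At 48 hpf *gpm6ab* was seen in 30 and *hand2* in 15 of these 43 cells. At 72 hpf *lyve1a* was seen in 4, *gpm6ab* in 9 and *hand2* in 6 of the 18. Whether the same single cells held both was not counted.

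**Figure D1:**
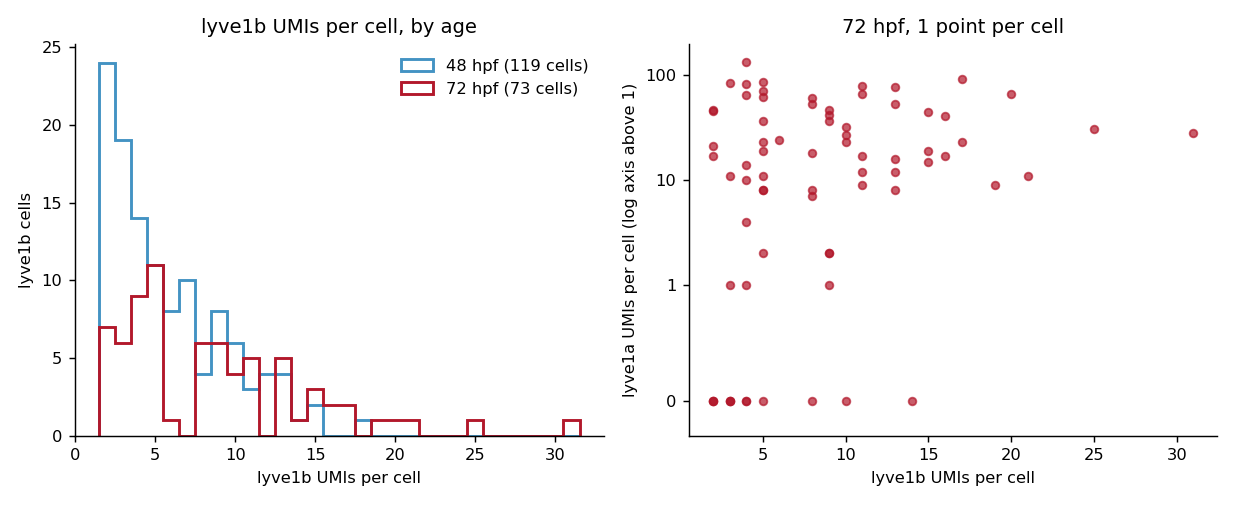
The left panel counts *lyve1b* cells (y axis) by their *lyve1b* UMIs (x axis) for the 119 cells at 48 hpf and the 73 cells at 72 hpf, and the right panel plots *lyve1a* UMIs (y axis, log scale above 1) against *lyve1b* UMIs for each cell at 72 hpf, 1 point per cell. The most frequent count at 48 hpf is 2, the lowest the rule admits, and at 72 hpf 12 cells lie at 0 *lyve1a* UMIs while the highest holds 135.

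The lymphatic markers given with the rule, other than *lyve1b* itself, were present together in nearly all cells. Of *lyve1a*, *flt4*, *gpm6ab*, *dab2* and *gpr182*, at least 3 had a UMI in 117 of 119 cells at 48 hpf and in 71 of 73 cells at 72 hpf. In the other *cdh5*-positive cells the shares were 8.95% and 5.28%. No cell of the 48 hpf library held *lyve1a*, so fewer of these markers could count there, and the shares of the ages are not the same measure. At 2000 UMIs per cell at least 3 were seen in 64.7% of the *lyve1b* cells and 1.15% of the other *cdh5*-positive cells at 48 hpf, and in 89.0% and 0.909% at 72 hpf. One cell at 72 hpf held none of these markers. The paper lists *gpm6ab*, *dab2*, *gpr182* and *lyve1b* among the top genes of its lymphatic cluster, which was drawn from these same libraries. Their joint presence is therefore a description and no separate support for a lymphatic label.

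*gpm6ab*, a membrane glycoprotein of the proteolipid family, had from 1 to 71 UMIs per *lyve1b* cell (median 23) at 48 hpf and from 0 to 39 (median 9) at 72 hpf. It stood at 2288 CPM against 102 in the other cells at 48 hpf, 22.4-fold higher (21.3 to 23.6), and at 1670 against 43.3 CPM at 72 hpf, 38.5-fold higher (35.0 to 42.4). *dab2*, a clathrin adaptor that carries receptors into endosomes, had a median of 8 UMIs per cell at both ages, and was 17.6-fold higher (804 against 45.6 CPM) at 48 hpf and 35.3-fold higher (1546 against 43.8 CPM) at 72 hpf. Both genes were seen in nearly every *lyve1b* cell and in a minority of the others. *gpr182*, an atypical receptor that binds chemokines on endothelial cells, stood at 872 CPM at 48 hpf and 871 CPM at 72 hpf, 4.10-fold (3.85 to 4.37) and 4.20-fold (3.77 to 4.67) above the other cells.

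The label of lymphatic cells rests on these markers, while *prox1a*, the transcription factor that defines lymphatic identity, was scarce. *prox1a* had a UMI in 7 of 119 cells at 48 hpf, at 8.44 CPM against 7.40 in the other cells, and the ratio of 1.14 had an interval of 0.561 to 2.08. At 72 hpf it had a UMI in 11 of 73 cells, at 30.4 CPM against 11.4, a ratio of 2.67 (1.40 to 4.63). Thinned to 2000 UMIs, 2.52% of the *lyve1b* cells and 1.43% of the others had a *prox1a* UMI at 48 hpf, and 9.59% and 2.73% at 72 hpf. No *lyve1b* cell had more than 2 *prox1a* UMIs. The cells are therefore called *lyve1b* cells throughout.

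Markers of macrophages, erythroid cells and cardiomyocytes were low in them. The rule leaves out cells with an *mpeg1.1* or *myb* UMI and the other cells keep such cells, so lower blood markers are partly built in. With the other cells under the same 3 exclusions, the log2 ratio of *lcp1*, of the macrophage list, moved at both ages. It went from 1.05 to 2.49 at 48 hpf and from -2.08 to -1.04 at 72 hpf. Sums under equal exclusions are not given here. The 25 macrophage genes together stood at 37.6 CPM at 48 hpf and 28.1 CPM at 72 hpf, against 164 and 115 CPM in the other *cdh5*-positive cells, with 16 and 20 of the 25 at 0. Erythroid genes summed to 146 and 117 CPM against 2033 and 1210 CPM, and cardiomyocyte genes to 22.2 and 14.1 CPM against 139 and 207 CPM. Neutrophil genes summed to 1191 and 1087 CPM, close to the 1329 and 915 CPM of the other cells, and nearly all of it came from 1 listed gene, *srgn*. The 10 stem and progenitor genes, which include the endothelial *lmo2*, summed to 581 against 409 CPM and 923 against 485 CPM, and the 8 thrombocyte genes to 25.3 against 19.2 CPM and 42.2 against 99.7 CPM. The part of these markers in the results was not tested. At 72 hpf single cells carried all 30 UMIs of the valve interstitial gene *angptl7*, all UMIs of the globin *hbbe2* and 96.6% of those of the liver gene *tfa*. At 72 hpf, where 530 cells lacked a *cdh5* UMI (median 10545.5 UMIs), 0 of them had *lyve1b*, with an exact upper limit of 0.694%. Of these cells, *lyve1a*, *gpm6ab*, *stab2*, *mrc1a* and *hoxb5a* were each seen in under 1%. Higher shares held *dab2* (3.40%), *plvapb* (2.26%), *cxcl12a* (3.58%) and *etv2* (3.58%). At 48 hpf only 31 cells lacked *cdh5*. In them *lyve1b* was seen in 0, *dab2* in 16.1%, *etv2* in 12.9%, *gpm6ab* in 6.45% and *plvapb* in 3.23%.

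Within each library, genes at 10 CPM or more in either group were compared, and a gene was called at a 2-fold difference in CPM after 1 was added to each value. At 48 hpf 478 of 6527 genes (7.32%) were higher and 531 (8.14%) lower in the *lyve1b* cells. At 72 hpf 1071 of 7532 (14.2%) were higher and 1290 (17.1%) lower. The median log2 ratio over all compared genes was 0.00 at both ages. Since the same cells set the rule and the ratios, these counts serve as background for the gene groups and as no test of them. The pools were small at 72 hpf, where 3 UMIs amounted to 7.03 CPM in the *lyve1b* cells against 2.30 CPM at 48 hpf. Of the genes called higher, 229 were called at both ages, 47.9% of the 48 hpf genes and 21.4% of the 72 hpf genes, and of those called lower, 306 (57.6% and 23.7%).

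**Figure D2:**
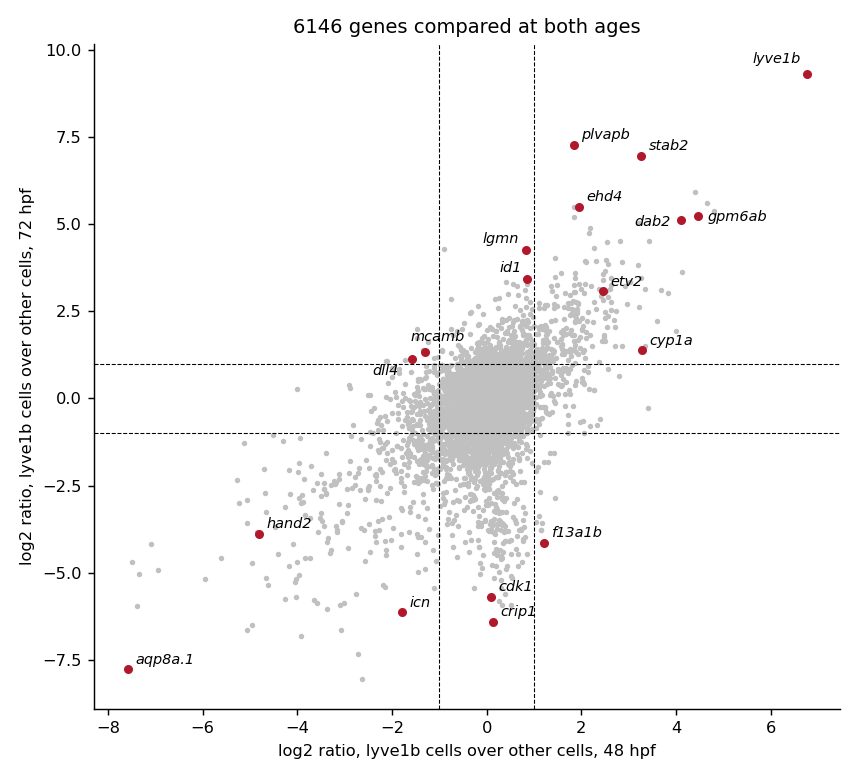
Each point is 1 of 6146 genes compared at both ages, with the log2 ratio of CPM in *lyve1b* cells over other *cdh5*-positive cells at 48 hpf on the x axis and at 72 hpf on the y axis, and dashed lines at 2-fold. *gpm6ab* and *dab2* lie far to the upper right and *hand2* and *aqp8a.1* to the lower left, *plvapb*, *lgmn* and *ehd4* lie higher on the y axis than on the x axis, and *f13a1b*, *dll4* and *mcamb* lie on opposite sides at the 2 ages.

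Transcription factors of lymphatic and venous endothelium were the first group. Of 12 listed factors compared at 48 hpf, 7 were called higher and 2 lower, with a median log2 ratio of 1.17, and of 14 at 72 hpf, 10 were higher and 1 lower, with a median of 1.70. *nr2f1a* and *nr2f2*, COUP transcription factors that mark venous and lymphatic fate, were higher by 7.82-fold and 2.32-fold at 48 hpf and by 9.58-fold and 3.23-fold at 72 hpf. *nr2f2* stood at 129 and 159 CPM in the *lyve1b* cells of the 2 ages. *sox18*, a SoxF factor upstream of *Prox1* in mice, was seen in 18 of 119 cells at 48 hpf (16.1 against 3.27 CPM) and in 22 of 73 at 72 hpf (60.9 against 6.02 CPM). Against this direction, *nr2f1b*, another COUP factor, was called lower at 48 hpf. *foxc1b* was lower at both ages, 137 against 293 CPM and 72.6 against 334 CPM.

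*etv2*, the ETS factor that first specifies endothelium and blood vessels in the embryo, was among the broad differences. Its level was 627 CPM in *lyve1b* cells at 48 hpf and 677 CPM at 72 hpf, with 113 of 119 and 69 of 73 cells positive. The other *cdh5*-positive cells stood at 113 and 79.3 CPM, so that the ratio was 5.56 (5.14 to 6.0) at 48 hpf and 8.54 (7.52 to 9.66) at 72 hpf. *lmo2*, a partner of early blood and endothelial factors, was also higher, at 286 against 111 CPM and 677 against 145 CPM. Of 23 pan-endothelial genes compared at 48 hpf, 9 were called higher and 3 lower, and of 24 at 72 hpf, 12 were higher and 2 lower. *vwf*, the von Willebrand factor gene, was lower at both ages, at 3.07 against 15.6 CPM and 4.68 against 93.9 CPM.

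Of the VEGF pathway, the receptor genes *flt4*, *nrp2b* and *kdrl* were higher and the ligand gene *vegfc* was nearly missing. *flt4* was seen in 56 of 119 *lyve1b* cells at 48 hpf (85.2 against 8.19 CPM, 10.4-fold, 8.23 to 13.1) and in 32 of 73 at 72 hpf (124 against 2.83 CPM, 43.8-fold, 30.1 to 63.2). Its co-receptor *nrp2b* was 19-fold higher (231 against 12.2 CPM) at 48 hpf and 13.3-fold higher (157 against 11.8 CPM) at 72 hpf. *kdrl*, the VEGF receptor whose promoter drives the mCherry reporter, stood at 370 against 108 CPM and at 1431 against 387 CPM. *vegfc* had 0 UMIs in the *lyve1b* cells at 48 hpf, at least 5.90-fold below the 13.6 CPM of the other cells, and 1 UMI at 72 hpf. Of the 8 genes of this pathway compared at each age, 4 and then 5 were higher, and 2 and then 1 lower. *flt1*, which binds VEGF-A and limits its signal, was 2.75-fold lower at 48 hpf (81.3 against 223 CPM), and stood at 101 against 86.2 CPM at 72 hpf. With cells that hold *tlx2*, *mpeg1.1* or *myb* UMIs also counted as *lyve1b* cells, the 48 hpf log2 ratio of *flt4* moved from 3.23 to 4.24. With such cells left out of the other cells instead, it was 3.99.

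**Figure D3:**
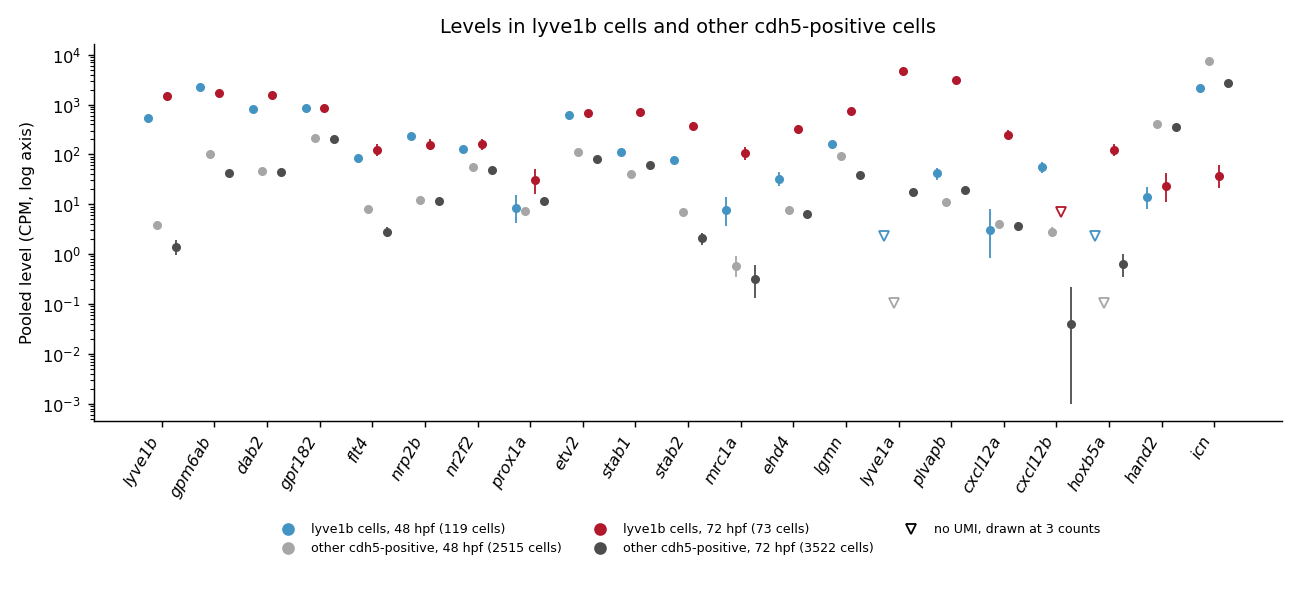
Pooled level in CPM (y axis, log scale) of 21 genes in *lyve1b* cells and other *cdh5*-positive cells at 48 and 72 hpf. Points are pooled values of 1 library each, bars are exact 95% Poisson intervals, and open triangles mark groups with no UMI, drawn at 3 counts. *gpm6ab*, *dab2*, *flt4* and *nrp2b* are above the other cells at both ages, *lyve1a*, *plvapb*, *cxcl12a* and *hoxb5a* are far higher in the 72 hpf *lyve1b* cells than in the other 3 groups, and *hand2* and *icn* are below the other cells at both ages.

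Scavenger receptors and endocytic adaptors take up material from outside the cell. Of 13 compared at 48 hpf 7 were higher and 0 lower (median log2 ratio 1.45), and of 16 at 72 hpf 11 were higher and 2 lower (2.42). *stab2*, an endocytic receptor for hyaluronan, was seen in 50 of 119 cells at 48 hpf (77.5 against 7.16 CPM, 10.8-fold) and in 44 of 73 at 72 hpf (379 against 2.06 CPM, 184-fold, 134 to 256). Its relative *stab1* stood at 110 against 39.6 CPM at 48 hpf and 707 against 62.4 CPM at 72 hpf, ratios of 2.77 and 11.3. *mrc1a*, the mannose receptor gene, had 10 UMIs in 9 cells at 48 hpf, and 45 UMIs in 25 cells at 72 hpf (105 against 0.311 CPM). *ehd4*, which acts in endocytic recycling, was 4.28-fold higher at 48 hpf (32.2 against 7.53 CPM) and 52.1-fold higher at 72 hpf (326 against 6.25 CPM). With the excluded cells also counted as *lyve1b* cells, the 48 hpf log2 ratio of *stab2* moved from 3.27 to 4.95. With them left out of the other cells instead, it was 5.09. The 48 hpf ratio of *stab2* thus depended on the excluded cells among the other cells. *scarf1*, a scavenger receptor of endothelial cells, was 3.66-fold and 7.32-fold higher. The exceptions were *colec12*, a scavenger collectin at 62.9 against 50.3 CPM at 48 hpf and 7.03 against 51.8 CPM at 72 hpf, and the LDL receptor gene *ldlra*, lower at 72 hpf.

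Lysosomal genes differed little at 48 hpf, where 1 of 20 was called higher (*lamp2*, 293 against 76.1 CPM) and the median log2 ratio was 0.15. At 72 hpf 8 of 21 were higher and 1 lower, with a median of 0.83. *lgmn*, the asparaginyl endopeptidase of lysosomes, stood at 164 against 92.0 CPM at 48 hpf (1.78-fold) and at 740 against 37.9 CPM at 72 hpf (19.5-fold, 17.1 to 22.2). The cathepsin genes *ctsla* and *ctsd* stood at 3412 against 1679 CPM and 295 against 102 CPM at 72 hpf. For *ctsla* the difference was just past 2-fold and was below it under 7 other settings.

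Genes of venous identity overlap with these groups. Of 10 compared at 48 hpf 7 were higher and 1 lower (median log2 ratio 1.35), and of 10 at 72 hpf 9 were higher and 0 lower (2.76). The lower gene at 48 hpf was *nr2f1b*. Among the members that the earlier groups do not hold were *ephb4b*, the venous receptor for ephrin-B2, at 96.7 against 40.0 CPM and 145 against 34.4 CPM, and the apelin receptor genes *aplnrb*, at 189 against 53.5 CPM and 79.6 against 22.1 CPM, and *aplnra*, at 520 against 288 CPM and 464 against 226 CPM.

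More arterial and Notch genes were lower than higher. Of 19 compared at 48 hpf 10 were lower and 4 higher (median log2 ratio -1.04), and of 17 at 72 hpf 8 were lower and 4 higher (-0.71). *hey2*, a Notch target of arteries and endocardium, had 6 UMIs in the 48 hpf cells (4.6 against 172 CPM) and 0 at 72 hpf, at least 12.8-fold below the 89.8 CPM of the others. *unc5b*, a netrin receptor of arterial cells, had 0 UMIs at 48 hpf, at least 16.2-fold below 37.4 CPM, and 3 UMIs at 72 hpf. The receptor *notch1b* was 4.74-fold lower at 48 hpf (35.3 against 167 CPM) and 2.70-fold lower at 72 hpf (74.9 against 203 CPM). The members above the other cells at both ages were the Notch ligand *dlc* (5.73-fold and 7.19-fold) and the junction gene *cldn5b* (965 against 343 CPM and 1143 against 181 CPM).

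*dll4*, a Notch ligand of arteries and sprouting vessels, lay on different sides of the other cells in the 2 libraries. It had a median of 1 UMI per cell and 159 CPM at 48 hpf, 3.01-fold below the other cells (2.62 to 3.47), and a median of 3 UMIs and 670 CPM at 72 hpf, 2.20-fold above them (1.95 to 2.48). Its log2 ratio at 72 hpf, 1.14, was below 2-fold under 3 other settings, between 0.90 and 1.00. *mcamb*, an endothelial adhesion molecule gene, did likewise, at 148 against 369 CPM and at 630 against 247 CPM.

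Valve endocardial genes and *hand2* were low. *hand2*, the transcription factor that the endocardium shares with the myocardium, had 18 UMIs in 9 of 119 cells at 48 hpf (13.8 against 413 CPM) and 10 UMIs in 4 of 73 cells at 72 hpf (23.4 against 358 CPM). It was 29.9-fold lower at 48 hpf (19 to 50.4) and 15.3-fold lower at 72 hpf (8.31 to 31.9). Of 12 genes of valve endocardium compared at each age, 10 were lower and 0 higher at 48 hpf and again 10 and 0 at 72 hpf, with median log2 ratios of -3.43 and -3.50. With genes at 0 UMIs set at their bound the medians were -3.37 and -3.24. Among them were the cell adhesion gene *alcama* (18.4 against 478 CPM and 2.34 against 136 CPM), the hyaluronan synthase gene *has2* (11.5 against 128 CPM at 48 hpf, 0 UMIs at 72 hpf) and *aldh1a2*, which makes retinoic acid (3.84 against 181 CPM and 4.68 against 44.0 CPM). With a minimum of 1 *lyve1b* UMI the 48 hpf log2 ratios were smaller, moving from -4.80 to -3.38 for *hand2* and from -5.23 to -1.80 for *aldh1a2*.

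The list of general endocardial genes was less uniform. At 48 hpf 3 of 14 were lower and 1 higher, with a median log2 ratio of -0.10, and at 72 hpf 7 of 15 were lower and 0 higher, with a median of -0.94. *tmem88a*, a Wnt modulator of the early heart, stood at 997 against 1103 CPM and 637 against 933 CPM, and *nfatc1*, a calcineurin-regulated factor of the endocardium, at 19.2 against 26.7 CPM and 39.8 against 63.0 CPM. *hapln1b*, a hyaluronan link protein, stood at 528 against 406 CPM at 48 hpf and 211 against 495 CPM at 72 hpf. The lower genes were *gata5*, *hand2* and *nrg1* at both ages, and at 72 hpf also *tbx20*, *vcam1b*, *tmem88b* and *hapln1b*. At 48 hpf *spock3* was the higher gene. The log2 ratio of *gata5* was -1.26 at 48 hpf and -3.13 at 72 hpf. With a minimum of 1 *lyve1b* UMI these values were -0.92 and -1.92. Transcripts such as *tmem88a* were thus present in the pooled *lyve1b* cells of both ages. *hand2* was scarce there, and *gata5* was lower than in the other cells.

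*aqp8a.1*, an aquaporin gene seen in 800 of the 2515 other cells at 48 hpf, had 1 UMI in the 119 *lyve1b* cells (0.767 against 336 CPM) and 0 in the 73, at least 30.8-fold below 217 CPM. *icn*, an S100-type calcium-binding protein gene, had from 0 to 125 UMIs per *lyve1b* cell (median 16) at 48 hpf and from 0 to 5 (median 0) at 72 hpf. It was 3.43-fold lower than in the other cells at 48 hpf (2155 against 7400 CPM) and 71.7-fold lower at 72 hpf (37.5 against 2688 CPM, 44.2 to 126). In all, *icn* had 2809 UMIs in the 48 hpf cells and 16 in the 72 hpf cells.

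Caveolar and diaphragm genes split in 2 directions. Of 8 compared at each age, 4 were lower and 2 higher at 48 hpf, and 4 and 2 at 72 hpf. *cavin1b*, which coats caveolae, was 30.7-fold lower at 48 hpf (5.37 against 165 CPM) and 4.19-fold lower at 72 hpf (23.4 against 98.2 CPM). With a minimum of 1 *lyve1b* UMI its 48 hpf log2 ratio moved from -4.70 to -2.58. *cav1*, the caveolin itself, was 7.21-fold lower at 48 hpf (43.0 against 310 CPM) and 1.69-fold lower at 72 hpf (197 against 333 CPM). *plvapb*, which forms the diaphragms of fenestrae and caveolae, was higher at both ages, 3.81-fold at 48 hpf (41.4 against 10.9 CPM) and 163-fold at 72 hpf (3143 against 19.3 CPM, 147 to 180).

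Among the 15 leading genes at 48 hpf outside these groups were *cyp1a*, a cytochrome P450 induced through the aryl hydrocarbon receptor, *cpn1*, a carboxypeptidase N subunit, and *adma*, the vasoactive peptide adrenomedullin. *cyp1a* had a median of 7 UMIs per cell at 48 hpf (1219 against 125 CPM, 9.75-fold) and of 1 at 72 hpf (658 against 251 CPM, 2.62-fold). *cpn1* stood at 837 against 76.9 CPM and 831 against 35.4 CPM, in 118 of 119 and 70 of 73 cells. *adma* was seen in 34 and 19 *lyve1b* cells, at 70.6 against 1.86 CPM and 178 against 2.72 CPM and its ratios of 38.0 and 65.5 rested on those cells. *bmp6*, a ligand of the BMP family, stood at 292 against 30.5 CPM and 541 against 86.5 CPM. *id1*, a target of BMP signalling, stood at 753 against 416 CPM at 48 hpf (1.81-fold) and at 1454 against 135 CPM at 72 hpf (10.7-fold, 9.84 to 11.7). Without the 3 exclusions its 48 hpf log2 ratio moved from 0.85 to 2.26. Of the 17 and 18 BMP pathway genes compared, 3 and 6 were higher and 5 and 4 lower. Over all compared genes 7.32% were higher and 8.14% lower at 48 hpf, and 14.2% and 17.1% at 72 hpf.

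Cells with a *tlx2* UMI, which the rule leaves out, held several of these genes. The 32 *tlx2*-positive cells among the other *cdh5*-positive cells at 48 hpf held *lyve1b* at 140 CPM, *dab2* at 540 CPM, *flt4* at 245 CPM, *stab2* at 365 CPM and *etv2* at 763 CPM. They differed from the *lyve1b* cells in *gpm6ab*, at 6.56 CPM in 3 cells against 2288 CPM, in *cyp1a*, at 76.5 against 1219 CPM, and in *hand2*, at 89.7 against 13.8 CPM. Since *tlx2* and *lyve1b* both entered the rule, these values are a description.

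The *lyve1b* cells of 72 hpf were then set beside those of 48 hpf. Of 7178 genes at 10 CPM or more in either library's *lyve1b* cells, 1536 (21.4%) were 2-fold higher and 1106 (15.4%) 2-fold lower at 72 hpf, with a median log2 ratio of 0.12 over all of them. In the other *cdh5*-positive cells 599 of 6944 genes (8.63%) were higher and 225 (3.24%) lower, with a median of 0.07. The *lyve1b* pools held 1303549 and 426999 UMIs and are far smaller than those of the other cells, so that counting error was larger in the *lyve1b* cells.

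*lyve1a*, the paralogue of *lyve1b*, had 0 UMIs in the whole 48 hpf library. At 72 hpf it had from 0 to 135 UMIs per *lyve1b* cell with a median of 17, and 61 of 73 cells were positive. Its level was 4679 CPM (4476 to 4889) in the *lyve1b* cells against 17.5 CPM in the others, and thinned to 2000 UMIs it was seen in 79.5% against 0.483%. Of all *lyve1a* UMIs at 72 hpf 81.5% lay in the *lyve1b* cells. Of 31 positive cells outside the rule, 10 had 3 or more UMIs, and 5 of these had no *lyve1b* UMI, 3 had 1 and 2 had at least 2. In the *lyve1b* cells *lyve1a* was at least 2033-fold higher at 72 hpf than the level of 3 counts at 48 hpf.

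*plvapb* followed the same pattern with a low level at 48 hpf. It had from 0 to 5 UMIs per cell (median 0) at 48 hpf and from 0 to 65 (median 17) at 72 hpf, and 28 of 119 and 69 of 73 cells were positive. The ratio of 72 to 48 hpf was 75.9 (57.8 to 102) in the *lyve1b* cells, against levels of 10.9 and 19.3 CPM in the other cells. The ranges of single cells at the 2 ages overlapped between 0 and 5 UMIs.

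Of 16 scavenger genes compared between the ages, 7 were higher at 72 hpf and 1 lower (median log2 ratio 0.81), against 2 of 12 higher and 1 lower in the other cells (-0.02). The 7 were *lyve1a*, *stab1*, *stab2*, *mrc1a*, *ldlra*, *snx8a* and *ehd4*. Over all genes compared between ages, 21.4% were higher and 15.4% lower in the *lyve1b* cells, and 8.63% and 3.24% in the other cells. The scavenger counts of the *lyve1b* cells and the other cells thus stand on unlike backgrounds. *stab1* was 6.45-fold higher (5.27 to 7.92), *stab2* 4.90-fold (3.8 to 6.34), *mrc1a* 13.7-fold (6.83 to 30.6) and *ehd4* 10.1-fold (7.11 to 14.6). Without the 3 exclusions the log2 ratio between the ages moved from 2.28 to 1.41 for *stab2* and from 3.62 to 2.95 for *mrc1a*. *lgmn* was 4.51-fold higher in the *lyve1b* cells and lay among the lower genes in the other cells (92.0 and 37.9 CPM).

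*hox* genes, which record position along the body axis, appeared in the 72 hpf *lyve1b* cells. The 48 listed *hox* genes summed to 0.77 CPM at 48 hpf and 218 CPM at 72 hpf in the *lyve1b* cells, and to 1.51 and 9.55 CPM in the others. *hoxb5a* had 0 UMIs in either group at 48 hpf. At 72 hpf it had 53 UMIs in 28 of 73 *lyve1b* cells, 124 against 0.621 CPM in the others, and was seen in 15% against 0.0852% of cells at 2000 UMIs. *hoxa4a* (37.5 against 1.75 CPM, 13 cells), *hoxb3a* (21.1 against 4.97 CPM, 8 cells) and *hoxb6a* (7 UMIs in 5 cells against 0) were the others past 10 CPM. *meis2a*, a homeobox cofactor of Hox proteins, went from 1 UMI at 48 hpf to 61 UMIs in 32 cells at 72 hpf (143 CPM, against 1.72 and 4.66 CPM in the other cells). Without the 3 exclusions the log2 ratio of *meis2a* between the ages moved from 6.35 to 4.21.

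The forms of the chemokine Cxcl12 differed between the libraries. *cxcl12b* had 72 UMIs in 37 of 119 cells at 48 hpf (55.2 against 2.82 CPM) and 0 at 72 hpf, at least 7.86-fold lower. *cxcl12a* had 4 UMIs in 4 cells at 48 hpf (3.07 against 4.03 CPM) and 107 UMIs in 29 of 73 cells at 72 hpf (251 against 3.65 CPM, 68.7-fold, 51.6 to 91.6). Without the 3 exclusions the log2 ratio of *cxcl12a* between the ages moved from 5.95 to 2.54. The ligand attracts migrating cells. Its signalling receptor gene *cxcr4b* had 1 UMI at 48 hpf and 0 at 72 hpf in the *lyve1b* cells, and the scavenging receptor *ackr3b* stood at 110 and 173 CPM.

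Other genes high at 72 hpf were of varied roles. *cd81b*, a tetraspanin gene, had 2 UMIs at 48 hpf and 81 UMIs in 19 cells at 72 hpf (190 CPM). *glula*, glutamine synthetase, was 29.6-fold higher (7.67 and 227 CPM, 15.4 to 63.7), and *dhrs3a*, which reduces retinal, had 0 UMIs at 48 hpf and 56 in 22 cells at 72 hpf. *hlx1*, a homeobox factor, had 1 UMI at 48 hpf and 73 UMIs in 31 cells at 72 hpf. The fatty acid binding gene *fabp11a* was 31.2-fold higher (99.0 and 3084 CPM), and the other cells differed in the same direction, at 566 and 2896 CPM. The log2 ratio of 72 to 48 hpf for *kdrl* was 1.95 in the *lyve1b* cells and 1.84 in the others.

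The genes missing at 72 hpf included *f13a1b*, a coagulation factor XIII A gene. It had from 0 to 15 UMIs per cell (median 3) in 93 of 119 positive cells at 48 hpf, at 320 CPM, and 0 at 72 hpf, at least 45.5-fold lower. At 48 hpf it was 2.33-fold above the other cells (137 CPM), and at 72 hpf at least 2.36-fold below them (16.6 CPM). *cabp5a* (204 CPM), *fstl1a* (161 CPM) and *ccdc80l2* (62.1 CPM) at 48 hpf likewise had 0 UMIs at 72 hpf, and in the other cells they stood at 45.0, 70.9 and 7.05 CPM at 48 hpf and at 0.155, 1.24 and 2.33 CPM at 72 hpf. *lrmp*, seen in 66 cells at 48 hpf, kept 1 UMI. *icn* was 57.5-fold lower at 72 hpf (35.4 to 101) in the *lyve1b* cells, and stood at 7400 and 2688 CPM in the others.

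**Figure D4:**
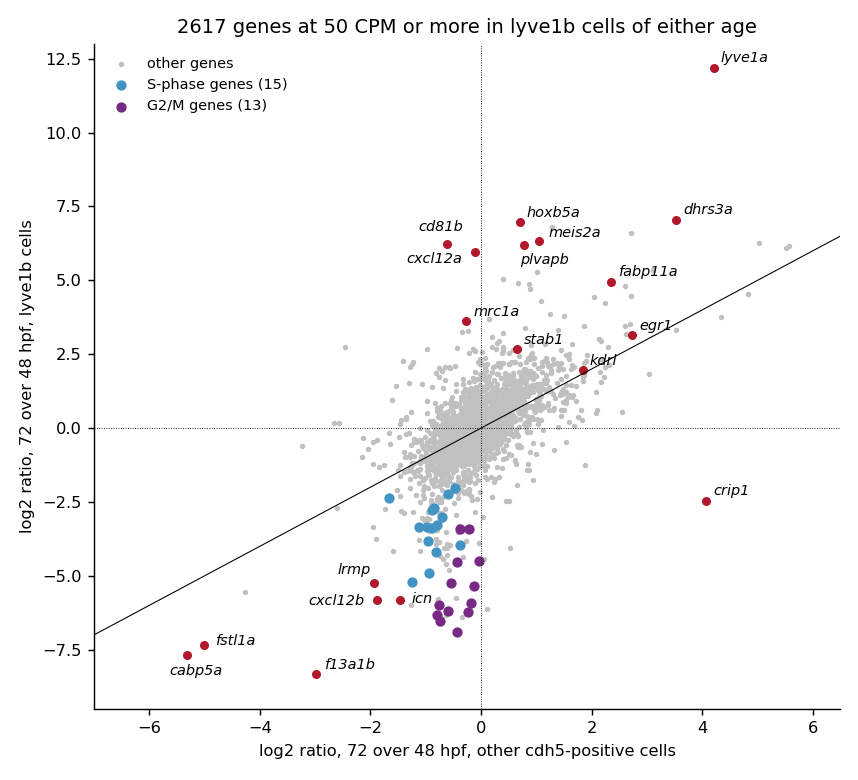
Each point is 1 of 2617 genes at 50 CPM or more in the *lyve1b* cells of either age, with the log2 ratio of 72 over 48 hpf in the other *cdh5*-positive cells on the x axis and in the *lyve1b* cells on the y axis. The diagonal marks equal ratios, and colours mark the listed S-phase and G2/M genes, which lie below it. *lyve1a*, *hoxb5a*, *cxcl12a* and *plvapb* lie far above the line, *f13a1b* far below it, and *kdrl* lies close to it.

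Genes of cell division separated the 2 ages of *lyve1b* cells. At 48 hpf the *lyve1b* cells stood beside the other cells, with 0 of 21 S-phase genes called in either direction and 1 of 22 G2/M genes higher. This depended on the rule. The rule was also applied to thinned UMIs, and 40 cells passed at 48 hpf. Its 3 exclusions then used thinned UMIs too, so the 40 need not all be among the *lyve1b* cells at full depth. In these 40 cells *mki67*, *top2a* and *cdk1* lay below the other cells. Their 48 hpf log2 ratios moved from 0.23, 0.43 and 0.09 to -1.40, -1.84 and -2.84. At 72 hpf 18 of 21 S-phase genes and 21 of 21 G2/M genes were lower than in the other cells, with median log2 ratios of -2.14 and -4.10 (-1.90 and -2.88 with genes at 0 UMIs set at their bound). Between the ages, 19 of 21 S-phase and 22 of 22 G2/M genes were lower at 72 hpf in the *lyve1b* cells, against 5 of 21 and 0 of 21 in the other cells. Over all genes compared between ages, 15.4% were lower in the *lyve1b* cells and 3.24% in the other cells.

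*mki67*, the Ki-67 proliferation marker, stood at 216 CPM (36 cells) at 48 hpf and at 4.68 CPM (2 UMIs) at 72 hpf, against 184 and 127 CPM in the other cells. The ratio was 46.0-fold lower with an interval of 12.6 to 382. *pcna*, the DNA polymerase clamp, stood at 751 and 72.6 CPM, 10.3-fold lower (7.24 to 15.3), against 786 and 399 CPM in the others. *cdk1*, the mitotic kinase, stood at 90.5 CPM at 48 hpf and had 0 UMIs at 72 hpf, at least 12.9-fold lower. *cdt1*, which licenses origins before S phase, was the S-phase gene called higher than in the other cells at 72 hpf, at 30.4 against 6.76 CPM.

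Counted by cell, 38 of 119 *lyve1b* cells at 48 hpf (31.9%, 23.7 to 41.1) had UMIs of at least 3 of the 23 listed G2/M genes, and 0 of 73 at 72 hpf, with an exact upper limit of 4.93%. In the other cells the shares were 26.6% and 12.1%. At 2000 UMIs per cell, at least 2 G2/M genes were seen in 21% of *lyve1b* cells and 20.4% of the others at 48 hpf, and in 1.37% (1 of 73 cells) and 9.88% at 72 hpf. The same share for S-phase genes was 54.6% and 54.7% at 48 hpf and 6.85% and 29.8% at 72 hpf. The 72 hpf result depended on the cells at the edge of the rule. With a minimum of 1 *lyve1b* UMI, 4 of 91 cells at 72 hpf had at least 3 G2/M genes, and the log2 ratio to the other cells moved from -4.49 to -0.31 for *mki67*, from -4.80 to -0.83 for *top2a* and from -5.68 to -0.71 for *cdk1*.

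**Figure D5:**
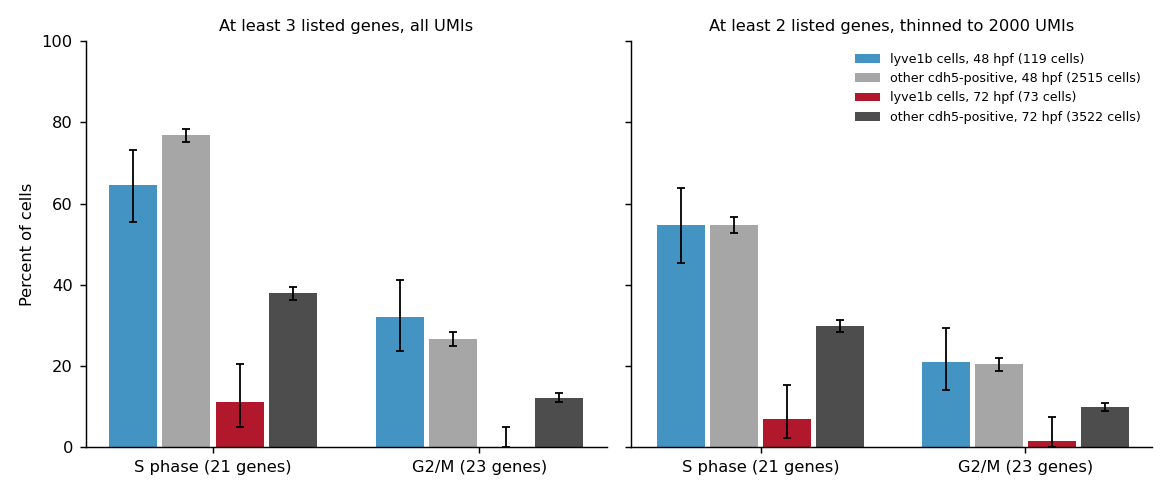
Percent of cells (y axis, from 0) with UMIs of the listed S-phase or G2/M genes, at least 3 genes over all UMIs in the left panel and at least 2 genes at 2000 UMIs per cell in the right panel. Bars are shares of cells in 1 library and error bars exact 95% binomial intervals. The *lyve1b* cells are level with the other *cdh5*-positive cells at 48 hpf except for S-phase genes at full depth (64.7% and 76.9%), and are the lowest bars at 72 hpf.

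Within the 72 hpf *lyve1b* cells, genes that set them apart from the other cells were not all held by the same cells. *stab2* was seen in 44, *flt4* in 32, *cxcl12a* in 29, *hoxb5a* in 28, *mrc1a* in 25 and *prox1a* in 11 of 73 cells. Of the *mrc1a*-positive cells, 19 also held *stab2* and 19 held *cxcl12a*, and of the *hoxb5a*-positive cells 21 held *stab2* and 18 held *meis2a*. *flt4* and *prox1a* were seen together in 1 cell. Genes missed at this depth were not modelled, and the overlaps are counts of cells with a UMI.

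The 12 *lyve1b* cells without a *lyve1a* UMI at 72 hpf were compared with the 61 that had one. The 12 cells held 63101 UMIs, so that 3 counts amounted to 47.5 CPM. Of 8252 genes, 2004 (24.3%) were 2-fold higher and 2092 (25.4%) lower in the *lyve1a*-positive cells, with a median log2 ratio of -0.19, and 612 were lower when the cell with most UMIs of each gene was left out. The leading genes rested on few UMIs. *zgc:66447*, for example, among the lower genes, had 0 UMIs against 3 in 3 of the 12 cells.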

How the data were processed

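Endothelial and endocardial cells of zebrafish hearts were profiled at 48 and 72 hpf with 10x Chromium 3′ libraries, 1 per age. The deposited files held raw UMI counts per gene and cell that the authors had made without normalization. The submitters' processing notes name STARsolo, Scanpy and danRer11. The 48 hpf barcodes differed slightly in number from the cells the study states. Libraries held 30735426 UMIs (2665 cells) and 33721297 UMIs (4125 cells), and 4 barcodes occurred in both, 0 of them in *lyve1b* cells. No doublet caller was run. At 48 hpf 5 *lyve1b* cells and at 72 hpf 0 lay above the 95th percentile of UMIs of their library.

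The 32057 Ensembl genes were summed to 31323 symbols, 546 of which several genes share. Counts were pooled per group and given as CPM, with exact Poisson intervals, exact conditional intervals of ratios and Clopper-Pearson intervals of shares. Genes at 10 CPM in either group were compared, 1 was added in log2 ratios and 2-fold differences were called. For a group at 0, ratios used 3 counts over the group. Thinned shares used 2000 UMIs per cell. Python 3.11, numpy 2.4.6, scipy 1.17.1, pandas 2.3.3 and matplotlib 3.10.9 were used. The gate, thinning, intervals and calls were tested on simulated data.

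The rule, its markers and the gene lists were chosen with earlier results of these data known. Named genes were the rule's genes and markers, listed genes, and the leading genes of each comparison: 15 higher and 10 lower in *lyve1b* cells among genes seen in 25% of cells, 12 per direction between ages, 8 per direction by the difference between the change in *lyve1b* cells and in other cells at 50 CPM or more, and 10 per direction for the *lyve1a* split. The listed genes *prox1b*, *pgfa*, *scarb2b*, *msr1*, *lipa*, *tmem2*, *bmx*, *fli1*, *cavin3*, *cx3cr1*, *eng*, *zfp36a* and *mmp13a.1* were not found by symbol. Alternatives covered the *lyve1b* minimum (1 or 3 UMIs), the 3 exclusions, a rule on thinned UMIs, deep cells, the comparison cells, median-of-ratios scaling, means of single cells, leaving out each gene's top cell, 5 added to CPM, and the CPM minimum (none or 50). A comparison with *cdh5*-positive cells under the same 3 exclusions was chosen after seeing the data. Some of the listed or leading genes are not reported here.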

Additional observations from a re-analysis of the deposited data

Results flagged for a closer look

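For 5 of the named genes the *lyve1b* cells lay on opposite sides of the other *cdh5*-positive cells at the 2 ages, with 2-fold as the limit. Over all compared genes, 16 were called higher at 48 hpf and lower at 72 hpf, and 11 the reverse, and the genes outside the named ones are not described here. The difference between ages was not tested, since each age has 1 library. The log2 ratio of *dll4* was -1.58 at 48 hpf and 1.14 at 72 hpf, and the 72 hpf value was below 2-fold under 3 other settings. The log2 ratio of *mcamb* was -1.31 and 1.35. The ratio of *f13a1b* was 1.21 at 48 hpf and -4.14 at 72 hpf, where it had 0 UMIs, so that the last value rests on the 1 added to each CPM and is no bound. Against 3 counts it was at least 2.36-fold below the other cells. The ratio of *lcp1*, a gene of blood cells, was 1.05 and -2.08, on UMIs in 9 cells and 1 cell, and the 48 hpf value was below 2-fold under 5 other settings. The ratio of *hdr*, a progenitor gene in blood, was 1.18 and -3.58, on UMIs in 13 and 0 cells. The 48 hpf value was below 2-fold under 4 other settings, and the 72 hpf value is no bound either, with *hdr* at least 1.56-fold below the other cells against 3 counts.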

How the results depend on the processing

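No paired analysis was possible because each age has 1 library and no comparison has a test. The number of *lyve1b* cells at 48 hpf was 40 with the rule on thinned UMIs and between 95 and 162 otherwise, and at 72 hpf between 50 and 91. With the thinned rule 15% of the 48 hpf cells had at least 3 G2/M genes. Counts of called genes moved with the CPM minimum. At 48 hpf 1139 were higher and 1419 lower than in the other cells with no minimum, 186 and 189 at 50 CPM, and 797 and 937 with the thinned rule. At 72 hpf the counts were 2489 and 3526 with no minimum and 407 and 363 at 50 CPM. Between ages they were 3529 and 2764, and 413 and 387. For the *lyve1a* split they were 5757 higher with no minimum, 311 and 357 at 50 CPM, and 612 lower without each gene's top cell. Of the named genes called in the report's settings, 77 of 86 at 48 hpf, 103 of 116 at 72 hpf and 61 of 77 between ages stayed past 2-fold under every alternative, as did 19 of 24 in the *lyve1a* split. Against *cdh5*-positive cells under the same 3 exclusions, a comparison chosen after seeing the data, 489 genes were higher and 524 lower at 48 hpf, and 1056 and 1246 at 72 hpf. Among the named genes called in the report's settings, direction turned for 3. Named genes below 2-fold were left out of this count, and some of them turned too. *top2a* at 48 hpf went from 0.43 to -1.84 with the thinned rule. Without the 3 exclusions *her12* at 48 hpf went from -0.90 to 3.63, and *id1* between ages from 0.95 to -0.25. The called genes that turned were *lcp1*, *crip1* and *her12*. *lcp1* at 48 hpf was at -0.32 with the thinned rule and -0.35 against all other cells of the library. *crip1* between ages (-2.46 as compared) was at 0.53 with a minimum of 1 *lyve1b* UMI, 1.6 with the thinned rule, 1.95 without the deepest cells and 1.18 without its top cell. *her12* between ages (2.73) was at -1.19 without the 3 exclusions, and 52.1% of its 72 hpf UMIs lay in 1 cell. *prox1a* between ages (1.74, on 11 UMIs at 48 hpf and 13 at 72 hpf) was at 0.42 without the exclusions and at 4.86 with the thinned rule. The cause was not tested. Depth limits what can be seen at 72 hpf, where genes under 7.03 CPM fall below 3 counts.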

Other observations

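Immediate early genes respond within minutes to stimuli including dissociation. Of 19 compared between ages in the *lyve1b* cells 8 were higher and 0 lower, and in the other *cdh5*-positive cells 5 of 20 and 0. Over all genes compared between ages, 21.4% were higher and 15.4% lower in the *lyve1b* cells. In the other cells the shares were 8.63% and 3.24%, so the 2 counts stand on unlike backgrounds. *fosab* stood at 2038 and 4560 CPM in the *lyve1b* cells and at 863 and 2415 CPM in the others. *atf3*, a stress-induced factor, stood at 2044 and 1354 CPM in the *lyve1b* cells, above the 903 and 495 CPM of the others at the same ages. *nr4a1*, an orphan nuclear receptor gene, lay below the other cells at both ages, at 23.8 against 76.7 CPM and 108 against 384 CPM.

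Genes of the Tie receptors and angiopoietins were also measured. The ligand gene *angpt1* stood at 21.5 against 1.1 CPM at 48 hpf, 19.5-fold higher (11.3 to 33.5), and at 11.7 against 14.4 CPM at 72 hpf. *tie1* had a median of 4 UMIs per *lyve1b* cell at 48 hpf and 6 at 72 hpf, at 475 against 282 CPM and 1077 against 393 CPM. *ptprb*, the phosphatase that acts on Tie receptors, stood at 85.2 against 65.4 CPM and 197 against 79.8 CPM, and the ligand gene *angpt2a* had 1 UMI in the *lyve1b* cells at 48 hpf and stood at 23.4 against 0.777 CPM in 4 cells at 72 hpf.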
